A study of Mus musculus with 9 samples.

Results

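RNA of long-term hematopoietic stem cells (LT-HSCs) that lacked all 3 class IA PI3-kinase catalytic subunits was compared with RNA of LT-HSCs that lacked p110δ alone. The comparison was set by genotype: the libraries labelled TKO were taken against those labelled P110d (called δKO here), which is 6 of the 9 libraries of the series, with 3 in each group. The remaining 3 libraries, from WT mice with Mx1-Cre, entered the model only to estimate the spread and are not compared. Both groups had the germline null allele of Pik3cd and floxed alleles of Pik3ca and Pik3cb on a C57BL/6 background, and they differed by the Mx1-Cre transgene, which the TKO mice carried and the δKO littermates did not. Cre is driven by the interferon-responsive Mx1 promoter, which is active in blood cells and in other tissues that respond to interferon. Whole bone marrow was transplanted into lethally irradiated recipients, and every recipient was given 2 injections of 250 μg pIpC, a synthetic double-stranded RNA that induces interferon, 48 hours apart. Donor-derived cells that were Lin-, cKit+ and Sca1+ and had CD150 but neither Flk2 nor CD48 on their surface were sorted 4 weeks later from the marrow of 7 pooled recipients per group. Since the controls had no Cre, the presence of Cre and the deletion of Pik3ca and Pik3cb cannot be told apart in this comparison, while the p110δ loss and the pIpC exposure were shared by both groups.

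Class IA PI3-kinases are pairs of a regulatory subunit and a p110 catalytic subunit that are recruited to activated receptors such as KIT, where they make the membrane lipid PIP3. PIP3 brings the kinase AKT to the membrane, AKT activates mTORC1 and keeps FoxO transcription factors out of the nucleus, and lipid phosphatases such as SHIP remove the signal. LT-HSCs are the rarely dividing cells at the top of blood formation, and in them this pathway is known for its part in the choice between quiescence and division, in autophagy and in survival.

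The δKO libraries held 32141683, 54249565 and 31300343 counts and the TKO libraries 46224594, 37544783 and 38673881. Values per library are CPM (counts of a gene over the library total, scaled with TMM factors) and are given in the order δKO replicate 1, δKO replicate 2 and the δKO library whose column is numbered 4 in the count table, a number that none of the δKO labels (1 to 3) carries (the unnumbered δKO library), then TKO replicates 1, 2 and 3, with the δKO values first where the groups are not named. The δKO libraries were the more spread group: the median SD of log2 CPM over 18205 genes was 1.01 in δKO and 0.62 in TKO, and 69.6% of genes had the larger SD in δKO. δKO replicate 1 and the unnumbered δKO library stood apart from the others on the principal components that held 33.9% and 27.4% of the variance, and they had the fewest detected genes (18180 and 18500, against 19703 to 22703 in the other 4). Xist, the noncoding RNA of the inactive X chromosome, was at 6393, 4909.6 and 59.5 CPM in the δKO libraries and 4162, 3227 and 36.5 CPM in the TKO libraries, and the Y-linked Ddx3y was above 1 CPM in the libraries with low Xist, at 42.0 CPM in the unnumbered δKO library and 34.9 CPM in TKO replicate 3, and below it in the other 4. Xist thus spanned 107-fold in δKO and 114-fold in TKO, although the cells of a group are described as pooled. Whether the libraries came from separate sets of animals is not stated in the sources used here, and p-values measure the spread between these libraries, which may in part be technical. Neutrophil and granule genes, markers of another cell type, summed to 508, 5403 and 13701 CPM in the δKO libraries and to 239, 3726 and 1126 CPM in the TKO libraries.

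**Figure D1:**
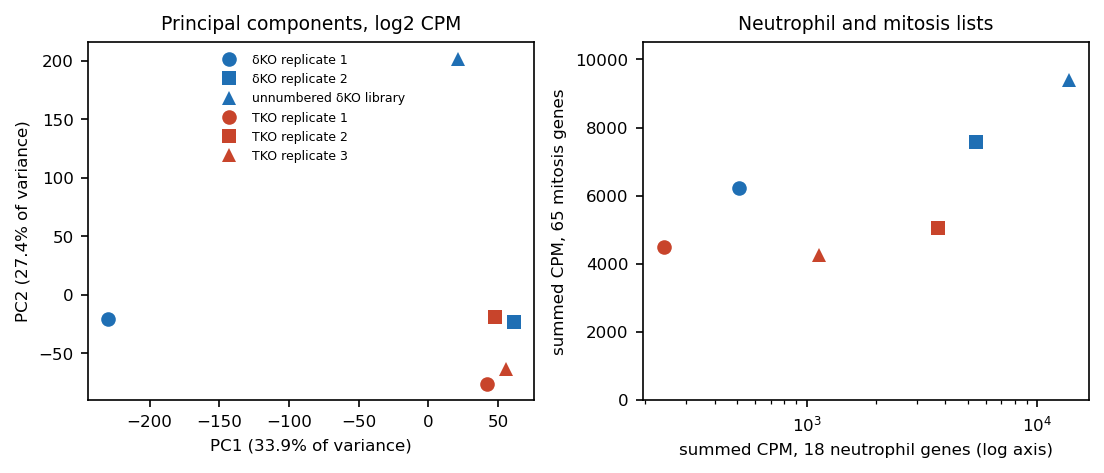
Left, scores of the 6 libraries on the principal components of log2 CPM that held 33.9% (x axis) and 27.4% (y axis) of the variance; right, summed CPM of 65 mitosis genes (linear axis from 0) against that of 18 neutrophil genes (log axis). Each point is 1 library, with δKO in blue and TKO in red: δKO replicate 1 and the unnumbered δKO library lie apart on the left, and on the right the mitosis sums of the TKO libraries (4251 to 5063) lie below those of the δKO libraries (6213 to 9406).

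Of the 3 targeted genes, Pik3cb had fewer transcripts in TKO than in most controls, and those of Pik3ca and Pik3cd did not separate the groups. Counts were summed over whole genes, so they do not show the loss of single exons, and neither the floxed exons nor the Pik3cd null allele can be read from them. Pik3cb, which encodes p110β (ENSMUSG00000032462.14, chromosome 9 from 99036654 to 99140621), was at 101, 33.2 and 68.7 CPM in the δKO libraries and 33.5, 25.5 and 33.9 CPM in the TKO libraries. The highest TKO library lay just above the lowest δKO library, and the difference was −1.13 ± 0.39 on the log2 scale (SE; edgeR unadjusted p = 0.0135, DESeq2 adjusted p = 0.133). Without δKO replicate 1 it was −0.72, with the number of detected genes as a covariate −0.63 and by voom −0.55, and without δKO replicate 2 it was −1.46. DESeq2 called 1 of the 3 targeted genes lower without δKO replicate 2 and 0 in each of the other fits with a library left out. Pik3ca, which encodes p110α (ENSMUSG00000027665.13, chromosome 3 from 32397671 to 32468486), was at 88.2, 41.3 and 48 CPM and 68, 52.8 and 59.8 CPM, with all 3 TKO libraries inside the δKO range. Pik3cd, null in both groups (ENSMUSG00000039936.18, chromosome 4 from 149649168 to 149702571), still gave reads at 38.5, 91.2 and 71.1 CPM in δKO and 71.2, 73.1 and 73.5 CPM in TKO, again without a separation of the groups.

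Among the other PI3-kinase subunits, p110γ and the main regulatory subunit were the members nearest to a difference. Pik3cg, the catalytic subunit that answers to G protein-coupled receptors, was at 425, 162 and 231 CPM in δKO and 121, 121 and 164 CPM in TKO, a difference of −1.01 ± 0.35 (edgeR unadjusted p = 0.0142). Pik3r1, which encodes the regulatory subunit p85α that stabilizes p110, was at 653, 222 and 319.7 CPM in δKO and 206, 177 and 225 CPM in TKO (log2 difference −0.98 ± 0.34, edgeR unadjusted p = 0.0147). In both, δKO replicate 1 was the highest library and δKO replicate 2 overlapped the TKO libraries, and without δKO replicate 1 the differences of Pik3cg and Pik3r1 were −0.54 and −0.42. Inppl1, the 5-phosphatase SHIP2 that converts PIP3, was at 12, 11 and 4.9 CPM in δKO and at a higher 39.7, 25.7 and 16.2 CPM in TKO, with no overlap (log2 difference 1.54 ± 0.56, DESeq2 adjusted p = 0.0892). Deptor, an inhibitor bound to mTOR, was also above every δKO library in all 3 TKO libraries, at 94.4, 121 and 103 CPM against 70.01, 48.1 and 71.8 CPM. On all 9 libraries none of these genes was called, and of the 12 other PI3-kinase subunit genes DESeq2 called 2 lower without δKO replicate 2, 1 lower without δKO replicate 1 and 1 higher without the unnumbered δKO library. Over whole lists, 26 AKT and mTOR kinase genes had a median log2 difference of −0.06 with 1 member higher and 1 lower at an unadjusted p under 0.05 (3.85% each, against 4.6% and 5.56% of all genes). The 11 phosphatases had a median of −0.05 with 1 higher (9.09%), and 23 FoxO target genes had a median of −0.09 with 1 higher and 2 lower (4.35% and 8.7%). With single libraries left out the medians ranged from −0.13 to 0.07 (AKT and mTOR), −0.15 to 0.29 (phosphatases) and −0.28 to 0.24 (FoxO targets), each with a sign that turned without δKO replicate 1. Of the FoxO targets 0 were higher and 5 lower without δKO replicate 1, 3 and 2 without δKO replicate 2, and 0 and 0 without the unnumbered δKO library. DESeq2 called 2 of them higher and 1 lower without δKO replicate 2, 2 lower without δKO replicate 1 and 1 lower without TKO replicate 3. The signs of these 3 medians turn under upper-quartile scaling (0.09, 0.11 and 0.07).

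Across the whole transcriptome, few differences between TKO and δKO LT-HSCs were larger than the spread among the libraries. Of 18205 genes, edgeR's quasi-likelihood test called 0 (0%) at an adjusted p under 0.05 with more than 2-fold change, and the smallest adjusted p was 0.465, which is therefore a lower limit for every gene below. At an unadjusted p under 0.05, 838 genes were higher in TKO (4.6%) and 1013 were lower (5.56%). Which direction held more genes turned with the processing: 984 were higher and 666 lower with upper-quartile factors, 1024 and 708 on the authors' normalized values, and 598 and 362 with the number of detected genes as a covariate. Without δKO replicate 2 there were 1758 and 1567, and without TKO replicate 1 there were 670 and 598. DESeq2, fitted to the same 9 libraries, called 352 genes higher (1.99% of 17669) and 200 lower (1.13%). All 3 TKO libraries lay above all 3 δKO libraries in 1271 genes (6.98%) and below them in 863 (4.74%). The median log2 difference over all genes was −0.06. Upper-quartile scaling and the authors' normalized values each shifted it by 0.14.

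Many DESeq2 calls were of genes near zero in one of the groups. Of the 352 higher genes, 245 had a mean under 1 CPM in δKO, and of the 200 lower genes 96 had one in TKO. The lowest δKO library of the higher genes was replicate 1 in 198 and the unnumbered library in 116, which are also the libraries with the fewest detected genes. Of the 200 lower genes, the highest δKO library was the unnumbered one in 95, replicate 1 in 87 and replicate 2 in 18. The number of calls moved with single libraries: without δKO replicate 2 DESeq2 called 1416 higher and 686 lower, without TKO replicate 1 it called 186 and 95, and without δKO replicate 1 it called 473 and 413. On the 6 compared libraries alone it called 189 higher and 78 lower. Of the gene list members described below, that fit also called Plk1, Cenpe, Kpna2, Nek2, Gbp2, Gbp3, Iigp1 and Cd74, whereas the calls of Ccnb1, Kif23, Spc25, Igtp, H2-T22, Ndufs3, Ctsc, Sumf1, Igf2r, Polk, Atg12, Hemgn, Alas2 and Selp were lost in it, with adjusted p from 0.0569 (Ndufs3) to 0.174 (Sumf1). There were 71 higher and 28 lower genes that DESeq2 called whichever library was left out.

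Mitosis had the largest share of members at an unadjusted p under 0.05 of all the gene lists examined. Of 65 mitosis genes, 60 were lower in TKO by sign and 5 higher, the median log2 difference was −0.69 against −0.06 over all genes, and 31 were lower at an unadjusted p under 0.05 (47.7%, against 5.56% of all genes) with 0 higher. All 3 TKO libraries lay below all 3 δKO libraries in 24 of them (36.9%, against 4.74%). DESeq2 called 7 lower (10.8%, against 1.13% of all genes): Plk1, Cenpe, Kpna2, Nek2, Kif23, Ccnb1 and Spc25. In bulk RNA, fewer dividing cells and less of each transcript per dividing cell cannot be told apart.

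Plk1, the kinase that drives entry into mitosis and the maturation of spindle poles (ENSMUSG00000030867.7, chromosome 7 from 122159439 to 122169873), was at 105, 98.7 and 163 CPM in the δKO libraries and 36.7, 32.1 and 34.9 CPM in the TKO libraries. The TKO libraries were close to each other and all lay far below the lowest δKO library, a log2 difference of −1.82 ± 0.32 (edgeR unadjusted p = 0.000102, DESeq2 adjusted p = 8.13e-05). Cenpe, the kinesin that moves chromosomes to the spindle equator, was at 211, 162 and 238 CPM in δKO and 75.5, 78.6 and 94.7 CPM in TKO, again without overlap (log2 difference −1.30 ± 0.26, DESeq2 adjusted p = 0.0012). Kpna2, an importin that carries nuclear proteins and is made mainly in late cell cycle, was at 192, 149 and 197 CPM in δKO and 64.5, 83.2 and 43.1 CPM in TKO (log2 difference −1.49 ± 0.31, DESeq2 adjusted p = 0.00407). These 3 were called by DESeq2 whichever library was left out.

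Nek2, a centrosome kinase, was at 84.7, 43.6 and 36.3 CPM in δKO and 15.1, 16.4 and 21.7 CPM in TKO, with δKO replicate 1 the highest. Ccnb1, the cyclin B1 that activates CDK1 at mitotic entry, was at 40.2, 80.3 and 84 CPM in δKO and 17.4, 34.7 and 23.6 CPM in TKO, with δKO replicate 1 the lowest of the controls but still above the highest TKO library (log2 difference −1.43 ± 0.38). Kif23, the kinesin of the midbody in cytokinesis, was at 119, 67.6 and 145 CPM and 42.7, 48.5 and 55.2 CPM. Spc25, part of the NDC80 complex that ties kinetochores to microtubules, was at 26, 19.4 and 51.3 CPM and 11.9, 10.2 and 5.32 CPM. None of these 4 overlapped between the groups, and their DESeq2 calls were kept in 4 (Nek2), 3 (Ccnb1), 1 (Kif23) and 4 (Spc25) of 6 fits with a library left out. Mki67, the proliferation antigen that coats mitotic chromosomes, was at 1263, 1444 and 1825 CPM in δKO and 941, 876 and 888 CPM in TKO. Smc4, a condensin subunit, was at 424, 323 and 409 CPM and 168, 218 and 205 CPM. Both separated the groups completely and passed DESeq2's adjusted p (0.0374 and 0.00572) at less than a 2-fold change, but not on the 6 compared libraries alone (0.218 and 0.0714).

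Summed over the 65 mitosis genes, the δKO libraries held 6213, 7560 and 9406 CPM and the TKO libraries 4491, 5063 and 4251 CPM, so the lowest control lay above the highest TKO library. Within δKO the neutrophil and granule sums (508, 5403 and 13701 CPM) ranked the libraries as the mitosis sums did, and TKO replicate 2 was the highest TKO library in both (3726 and 5063 CPM). Between the groups, TKO replicate 2 had the higher neutrophil sum and the lower mitosis sum than δKO replicate 1. Multipotent and lymphoid progenitor genes were lower as well: 9 of the 10 with enough counts (of 12) were lower in TKO by sign, with a median log2 difference of −0.98 that ranged from −1.44 to −0.60 when single libraries were left out. The 12 summed to 525, 654 and 1121 CPM in δKO and 481, 535 and 478 CPM in TKO, with 0 to 3 of them at 0 in a library. The part of these cell types in the mitosis result was not tested. The median of the mitosis list ranged from −0.86 to −0.55 when single libraries were left out. The count lower at an unadjusted p under 0.05 was 19 without TKO replicate 3 and 41 without δKO replicate 1. DESeq2 called 17 lower without δKO replicate 1, 11 without δKO replicate 2 or TKO replicate 2 and 5 without the unnumbered δKO library. Members higher at that threshold numbered 1 without δKO replicate 1 and 2 without δKO replicate 2, where DESeq2 called 2 higher.

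**Figure D2:**
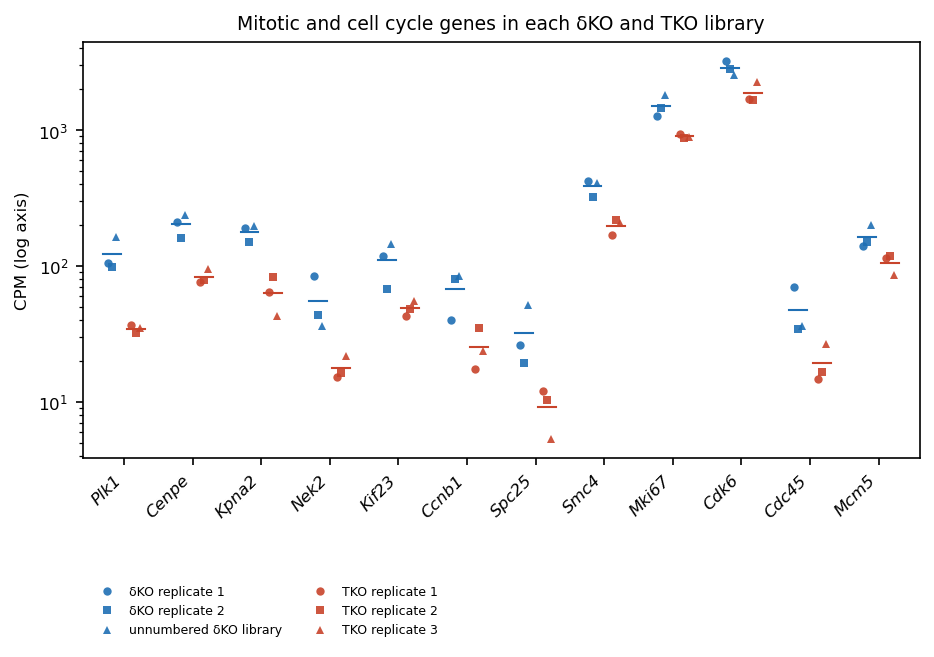
CPM on a log axis of named mitosis and other cell cycle genes in each of the 3 δKO and 3 TKO libraries, with the group mean as a bar. The TKO points of Plk1 (32.1 to 36.7 CPM) lie below the lowest δKO point (98.7 CPM). In every other gene drawn the highest TKO point also lies below the lowest δKO point. Most of the genes drawn were chosen for a small p or a DESeq2 call. Such a separation was seen in 24 of the 65 mitosis genes (36.9%) and 7 of 50 DNA replication genes (14%), against 4.74% of all genes.

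Promoters of mitosis genes are shown because their members differed together and because many late cell cycle genes are known to be repressed in resting cells through a CHR element, next to CCAAT boxes that bind the activator NF-Y. The 150 bases before the RefSeq start of 3 genes that DESeq2 called are given 5′ to 3′ on the gene's strand (GRCm38.p6, Plk1 chr7:122159285-122159434 on the + strand, Kpna2 chr11:106999526-106999675 and Ccnb1 chr13:100786487-100786636 on the − strand), with capitals for CCAAT or its reverse complement and for the CHR letters TTTGAA or TTCGAA on either strand:
Plk1: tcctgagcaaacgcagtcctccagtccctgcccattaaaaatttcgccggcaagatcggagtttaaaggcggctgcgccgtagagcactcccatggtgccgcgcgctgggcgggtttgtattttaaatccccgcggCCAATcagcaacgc
Kpna2: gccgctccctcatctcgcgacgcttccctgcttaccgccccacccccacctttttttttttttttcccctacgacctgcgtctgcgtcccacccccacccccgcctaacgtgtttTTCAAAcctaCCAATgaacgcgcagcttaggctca
Ccnb1: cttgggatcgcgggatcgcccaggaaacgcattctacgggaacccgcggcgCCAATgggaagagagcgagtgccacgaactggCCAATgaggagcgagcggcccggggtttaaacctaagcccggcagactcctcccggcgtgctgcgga
The search covered both strands of windows from 250 bases before to 50 bases after the start. CHR letters were in 71.7% of 60 windows of mitosis genes (55 of 65 genes had a window) against 19.2% of all 32851 windows, CCAAT was in 75% against 37.4%, and both were in 61.7% against 7.52%. All 7 genes called by DESeq2 held CCAAT in the window and 4 held CHR letters. These matches describe the letters of the windows and not binding, and the list was chosen for its function in the cycle.

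Genes of DNA replication, the phase before mitosis, were also mostly lower by sign. Of 50 such genes 35 were lower by sign and 15 higher, the median log2 difference was −0.24 (−0.12 without δKO replicate 1 or TKO replicate 3), 6 were lower at an unadjusted p under 0.05 (12% against 5.56% of all genes) and 1 was higher, and DESeq2 called 0. Cdc45, part of the replicative helicase, was at 70.3, 34.6 and 36 CPM in δKO and 14.6, 16.4 and 26.5 CPM in TKO, with no overlap (log2 difference −1.29 ± 0.40, DESeq2 adjusted p = 0.0527). Mcm5, a subunit of the same helicase, was at 141, 149 and 199 CPM and 114, 118 and 85.3 CPM, whereas its partner Mcm2 was at 189.8, 152 and 163 CPM and 189, 146 and 137 CPM, where the groups overlapped. Tyms, thymidylate synthase, was at 232, 91.4 and 89.7 CPM in δKO and 71.6, 85.3 and 61.5 CPM in TKO, and without δKO replicate 1 its log2 difference was −0.32 instead of −0.92. Without TKO replicate 3, 1 member was lower and 2 were higher at an unadjusted p under 0.05. DESeq2 called 3 lower without δKO replicate 2, and 1 higher and 1 lower without δKO replicate 1. It called 1 lower without the unnumbered δKO library, TKO replicate 2 or TKO replicate 3.

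Of the brakes of the cycle and their partners, 15 of 17 listed genes had enough counts, with a median of −0.17 that was 0.00 under upper-quartile scaling, −0.33 without the unnumbered δKO library, −0.10 without δKO replicate 1 and −0.03 without TKO replicate 1. Cdk6, a kinase known to time the exit of LT-HSCs from quiescence, was at 3234, 2842 and 2565 CPM in δKO and 1684, 1658 and 2257 CPM in TKO, where every TKO library lay below every δKO library (log2 difference −0.63 ± 0.23, edgeR unadjusted p = 0.0184). Rbl2, the pocket protein p130 that holds cell cycle genes silent in resting cells, was likewise lower in all TKO libraries, at 109.6, 77.9 and 91 CPM against 146, 125 and 173 CPM (edgeR unadjusted p = 0.0153). Neither was called by DESeq2.

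Interferon-inducible GTPases were mostly higher in TKO. These are the guanylate-binding proteins (GBPs) and the immunity-related GTPases (IRGs), which coat and destroy vacuoles of intracellular microbes and are induced above all by interferon γ. Of 22 genes with enough counts (of 24 listed with their regulators), 16 were higher and 6 lower by sign, the median log2 difference was 0.43 (0.65 without δKO replicate 1, 0.67 without the unnumbered δKO library), and 4 were higher at an unadjusted p under 0.05 (18.2%, against 4.6% of all genes) with 0 lower. In 7 of them all TKO libraries lay above all δKO libraries (31.8%, against 6.98%), and DESeq2 called 4 higher (18.2%, against 1.99%): Gbp2, Gbp3, Iigp1 and Igtp. Members of these families are near copies of each other, so how reads were split between them is uncertain.

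Gbp2 (ENSMUSG00000028270.12, chromosome 3 from 142620602 to 142638008) was at 6.1, 13.9 and 8.88 CPM in the δKO libraries and 28.7, 39.5 and 33 CPM in the TKO libraries, a log2 difference of 1.80 ± 0.46 (edgeR unadjusted p = 0.00202, DESeq2 adjusted p = 0.00205). All 3 TKO libraries lay above all 3 controls. Gbp3, its neighbor on chromosome 3 (ENSMUSG00000028268.14, start 142560026), was at 16.1, 19.3 and 13.3 CPM in δKO and 38.5, 49.8 and 35.2 CPM in TKO (log2 difference 1.34 ± 0.36, DESeq2 adjusted p = 0.00099). Both were called by DESeq2 whichever library was left out. Iigp1, an IRG that binds the membrane of the parasite vacuole, was at 5.39, 12 and 8.66 CPM and 35.6, 56.8 and 24.6 CPM without overlap, and its call was kept in 4 of 6 fits with a library left out. Igtp, an IRG that regulates the others and shares part of its span with Irgm2 on the same strand, was at 13.6, 24.1 and 36.3 CPM in δKO and 71.7, 91.3 and 44.7 CPM in TKO, with a call kept in 2 of 6. Gbp5, which promotes inflammasome assembly, was at 5.11, 11.7 and 28.1 CPM and 49.3, 29.96 and 26.4 CPM, where the unnumbered δKO library reached into the TKO range (edgeR unadjusted p = 0.0542). DESeq2 called 2 of the list higher without TKO replicate 1 or TKO replicate 2 and 5 at most. At an unadjusted p under 0.05, 1 member was lower without δKO replicate 1 or δKO replicate 2. DESeq2 called 1 lower without δKO replicate 1.

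The upstream sequence of 3 of these genes is shown because interferon acts on them through an ISRE, searched by its core (GAAA, any pair of bases, GAAA), and a GAS element, TTCNNNGAA. The 150 bases before the RefSeq start are printed in the same way (GRCm38.p6, all on the + strand, Gbp2 chr3:142620513-142620662, Gbp3 chr3:142559894-142560043, Igtp chr11:58199406-58199555), with matches on either strand in capitals. Overlapping matches run together as 1 stretch of capitals:
Gbp2: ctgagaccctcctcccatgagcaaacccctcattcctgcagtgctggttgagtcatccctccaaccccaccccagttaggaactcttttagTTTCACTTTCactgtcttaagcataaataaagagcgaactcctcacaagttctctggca
Gbp3: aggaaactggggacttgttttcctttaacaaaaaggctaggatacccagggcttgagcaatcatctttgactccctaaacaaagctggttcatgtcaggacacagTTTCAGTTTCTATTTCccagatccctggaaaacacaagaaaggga
Igtp: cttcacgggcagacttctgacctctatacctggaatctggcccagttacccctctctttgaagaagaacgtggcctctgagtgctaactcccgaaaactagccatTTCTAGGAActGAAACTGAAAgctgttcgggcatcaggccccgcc
In windows from 250 bases before to 50 after the start, the ISRE core was in 61.1% of 18 windows of the list (16 of 24 genes had a window) against 3.44% of all windows, GAS letters were in 38.9% against 8.3%, and both were in 33.3% against 0.454%. The printed windows of Gbp2, Gbp3 and Igtp held the ISRE core, and a second RefSeq start of Gbp3, whose 150 bases before it are chr3:142560206-142560355, had no match of either motif there.

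Genes of antigen presentation followed in part. Of 27 genes 18 were higher and 9 lower by sign, with a median log2 difference of 0.24 (0.48 without δKO replicate 1, 0.15 without the unnumbered δKO library and 0.11 without TKO replicate 2), 3 higher at an unadjusted p under 0.05 (11.1%, against 4.6%) and 2 called higher by DESeq2 (7.41%, against 1.99%). Cd74, the invariant chain that guides MHC class II molecules to endosomes, was at 32.4, 38.1 and 49.6 CPM in δKO and 111, 102 and 74.3 CPM in TKO. Each TKO library was above each control, and the log2 difference of 1.26 ± 0.28 was called by DESeq2 whichever library was left out (adjusted p = 0.00139). H2-T22, a nonclassical class I molecule that is a ligand of γδ T cells, was at 7.22, 16.6 and 7.67 CPM and 46.3, 19 and 39.7 CPM (DESeq2 adjusted p = 0.0453). Its neighbor H2-T23, which encodes Qa-1, was at 38, 44.1 and 28.8 CPM and 79.8, 80.8 and 63 CPM, a difference that missed the call (DESeq2 adjusted p = 0.0738). H2-Eb1, the class II β chain, was at 12.8, 4.38 and 0.664 CPM in δKO and 15.7, 20.4 and 21.9 CPM in TKO, where the controls spanned a wide range and the TKO libraries a narrow one above it (edgeR unadjusted p = 0.0691). Without δKO replicate 1, 7 members were higher at an unadjusted p under 0.05. The call of H2-T22 was kept in 2 of 6 fits with a library left out. The 12 listed B cell markers, a cell type with class II transcripts, summed to 12.8, 13.1 and 13.2 CPM in δKO and 15.1, 11.8 and 4.83 CPM in TKO, with 2 to 9 of them at 0 in a library and Cd22 at 0 in all 6.

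The type I interferon-stimulated genes did not move one way. Of 43, 26 were higher and 17 lower by sign, the median log2 difference was 0.21 (0.38 without δKO replicate 1, 0.02 without TKO replicate 2), 5 were higher and 2 lower at an unadjusted p under 0.05 (11.6% and 4.65%, against 4.6% and 5.56%), and DESeq2 called 0. Without δKO replicate 1 there were 9 higher and 0 lower at that threshold and without δKO replicate 2 there were 7 and 4, with 4 called higher by DESeq2 in each. Without the unnumbered δKO library there were 2 and 4, and without TKO replicate 2 there were 2 and 1. DESeq2 then called 1 lower without δKO replicate 2 or the unnumbered δKO library and 1 higher without TKO replicate 2. Ddx58, the RNA sensor RIG-I, was at 31.4, 39.7 and 34.5 CPM in δKO and 47.7, 86.7 and 59.4 CPM in TKO without overlap (edgeR unadjusted p = 0.0156). Oasl2, of the oligoadenylate synthetase family, was at 84.3, 51.5 and 29.1 CPM and 82.5, 137 and 85 CPM with overlap. Isg15, a ubiquitin-like protein and a usual marker of interferon exposure, was at 0.199, 2.07 and 0 CPM in δKO and 1.22, 26.7 and 3.22 CPM in TKO, with overlap, and the only library with a high value was TKO replicate 2. Ifitm1, a membrane protein that restricts virus entry, is not among the 43 and was chosen after its values were seen. It was at 68.9, 91.7 and 42.5 CPM in δKO and 193, 339.5 and 189 CPM in TKO, and DESeq2 called it whichever library was left out (log2 difference 1.83 ± 0.37, adjusted p = 0.00374).

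**Figure D3:**
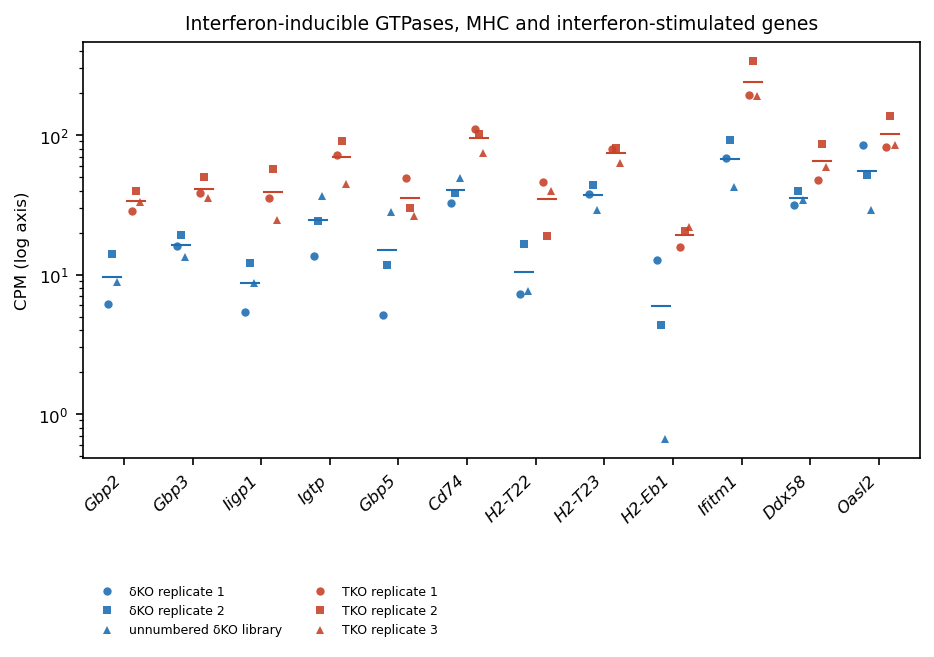
CPM on a log axis of interferon-inducible GTPase, antigen presentation and interferon-stimulated genes in each δKO and TKO library, with the group mean as a bar. For Gbp2, Gbp3, Iigp1, Igtp and Cd74 the lowest TKO point lies above the highest δKO point, whereas for Gbp5 and Oasl2 the groups overlap.

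Transcripts of energy metabolism were mostly lower in TKO by sign, and few of them beyond the spread. Of 23 glycolysis genes 20 were lower by sign, with a median of −0.44 (−0.22 without the unnumbered δKO library), 3 lower at an unadjusted p under 0.05 (13.04% against 5.56%) and 1 higher. Pgk1, phosphoglycerate kinase, was at 117, 85.7 and 118 CPM in δKO and 53.4, 61.7 and 69.8 CPM in TKO, without overlap (log2 difference −0.79 ± 0.25, DESeq2 adjusted p = 0.0347). Tpi1, triose phosphate isomerase, was at 159, 124 and 127 CPM and 62.8, 115 and 75.9 CPM. Aldoa, aldolase A, was at 224, 135 and 185 CPM and 94, 131 and 129.8 CPM, where the highest TKO library came close to the lowest control. The 1 member that was higher was Slc2a1, the glucose transporter GLUT1 at the head of the pathway, at 45.5, 32.7 and 50.9 CPM in δKO and 79, 88.3 and 67.7 CPM in TKO (log2 difference 0.86 ± 0.28, DESeq2 adjusted p = 0.042). Pgk1 and Slc2a1 both passed DESeq2's adjusted p at less than a 2-fold change, in opposite directions, but not on the 6 compared libraries alone (0.2397 and 0.261). Without TKO replicate 1 or TKO replicate 3, 1 member was lower at an unadjusted p under 0.05, and 5 were without TKO replicate 2. Without δKO replicate 1, 3 were higher and 4 lower, and DESeq2 called 2 higher and 1 lower. The glycolysis sum was 3325, 2873 and 4539 CPM in δKO and 2654, 3206 and 2630 CPM in TKO, and like the neutrophil and granule sum it was highest in the unnumbered δKO library and, in TKO, in replicate 2. The part of granulocyte transcripts in it was not tested.

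Subunit genes of the respiratory chain were mostly lower by sign. Of 42 nuclear genes for its subunits 36 were lower, with a median of −0.34 (−0.62 without TKO replicate 2, −0.23 without TKO replicate 1 and −0.18 without TKO replicate 3), 3 at an unadjusted p under 0.05 (7.14% against 5.56%) and 1 called lower by DESeq2 (2.38% against 1.13%). That gene was Ndufs3, a core subunit of complex I, at 33.5, 32.3 and 38.7 CPM in δKO and 13.9, 16.9 and 19.6 CPM in TKO (log2 difference −1.05 ± 0.36, DESeq2 adjusted p = 0.00102, call kept in 4 of 6 fits with a library left out). Ndufa9, another complex I subunit, was at 35.3, 32.4 and 87.2 CPM and 24.2, 22.3 and 23.2 CPM, with the unnumbered δKO library high, and without that library the log2 difference was −0.54 instead of −1.15. The count of nuclear genes lower at an unadjusted p under 0.05 was 12 without TKO replicate 2, 7 without δKO replicate 1 and 1 without TKO replicate 1. All 10 mitochondrially encoded mRNAs with enough counts (of 13) were lower by sign, with a median of −0.66 (−0.41 without the unnumbered δKO library) and 4 at an unadjusted p under 0.05 (40% against 5.56%), a count that was 2 without the unnumbered δKO library and 0 without TKO replicate 1 or TKO replicate 3. mt-Cytb, cytochrome b of complex III, was at 2839.8, 3209.5 and 3487 CPM in δKO and 1545, 2764 and 1674 CPM in TKO. mt-Co1, a core subunit of complex IV, was at 3560.3, 5034 and 7107 CPM and 2439, 4165 and 2346 CPM. In both, TKO replicate 2 stood close to the controls while TKO replicates 1 and 3 were low. Mitochondrial ribosomal RNA took 9.63%, 16.9% and 17.1% of counts in the δKO libraries and 8.64%, 15.7% and 6.88% in the TKO libraries, and the mitochondrial mRNAs summed to 9240.2, 11916 and 14751 CPM in δKO and 6270.2, 9968 and 6182 CPM in TKO. Like the neutrophil and granule sums, these were highest in the unnumbered δKO library, lowest among the controls in δKO replicate 1, and highest in replicate 2 within TKO. The part of neither in the result for the mitochondrial mRNAs was tested.

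Lysosomal genes were mostly lower in TKO. Of 64 genes for regulators, sorting receptors, membrane proteins, the proton pump and hydrolases, 47 were lower and 17 higher by sign, with a median log2 difference of −0.41, 16 lower at an unadjusted p under 0.05 (25% against 5.56%) and 0 higher. DESeq2 called 5 lower (7.81% against 1.13%): Ctsc, Sumf1, Igf2r, Hgs and Nagpa. Ctsc, the protease cathepsin C that activates granule serine proteases, was at 84.4, 52.7 and 110.03 CPM in δKO and 26.1, 41.6 and 26.3 CPM in TKO, without overlap (log2 difference −1.39 ± 0.38, DESeq2 adjusted p = 0.0345). Sumf1, the enzyme that activates sulfatases, was at 92.5, 16.4 and 40.3 CPM and 16, 9.13 and 15.5 CPM, where the lowest control nearly met the highest TKO library (DESeq2 adjusted p = 0.0477). Of the receptors that sort enzymes to the lysosome, Igf2r, which binds mannose 6-phosphate, was at 28.1, 20.8 and 71.1 CPM in δKO and 6.27, 11.9 and 16.3 CPM in TKO. Sort1, sortilin, was at 146, 157 and 366 CPM and 91.4, 107 and 117 CPM. In both the unnumbered δKO library was the highest.

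The lysosome counts rested on single libraries. Without the unnumbered δKO library, 6 members were lower at an unadjusted p under 0.05 and DESeq2 called 0, and without TKO replicates 1 and 3 the first of these counts was 7 and 8. Without TKO replicates 1, 2 and 3 in turn DESeq2 called 1, 2 and 1 lower, and without δKO replicate 2 it called 10 lower and 2 higher. In that last setting 2 members were higher at an unadjusted p under 0.05. The median stayed between −0.56 and −0.29. The summed CPM of the list was 4232, 4136 and 6001 in the δKO libraries and 3060, 4314 and 3225 in the TKO libraries, so TKO replicate 2 lay inside the control range. The neutrophil and granule sum was also highest in the unnumbered δKO library (13701 CPM) and in TKO replicate 2 among the TKO libraries (3726 CPM), and its part in the lysosomal result was not tested.

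Of the autophagy genes, which act upstream of the lysosome, those of initiation and conjugation were near an even split by sign, and more of the receptor and fusion genes were lower than higher. Of 22 genes of the initiation complexes, 12 were higher and 10 lower by sign, and 0 passed an unadjusted p under 0.05 by edgeR or were called by DESeq2. The split was 16 higher and 6 lower without δKO replicate 1, where 2 were higher at an unadjusted p under 0.05, and 8 and 14 without δKO replicate 2, where 1 was lower. Without the unnumbered δKO library 1 was lower and DESeq2 called 1 higher. Of 16 genes of ATG12 and LC3 conjugation, 8 were higher and 8 lower by sign. The 1 called by DESeq2 was Atg12, the ubiquitin-like protein that is joined to ATG5 to lengthen the autophagosome membrane, at 24.3, 21.5 and 18.5 CPM in δKO and 11.2, 8.25 and 12.2 CPM in TKO. All TKO libraries were below all controls, with a log2 difference of −1.02 ± 0.40 (DESeq2 adjusted p = 0.00994, call kept in 3 of 6 fits with a library left out). Of 21 receptor and fusion genes 14 were lower and 7 higher by sign, and 3 were lower and 0 higher at an unadjusted p under 0.05 (14.3% against 5.56%). Among them Rab7, the GTPase of late endosomes and their fusion with lysosomes, was at 265, 196 and 237 CPM in δKO and 174, 171 and 136 CPM in TKO without overlap (log2 difference −0.54 ± 0.22). Tollip, an adaptor that links ubiquitin to autophagy, was at 137, 41.2 and 77.3 CPM and 33.8, 53.1 and 35.3 CPM with overlap. The count of receptor and fusion genes lower at that threshold was 5 without δKO replicate 2, 1 without δKO replicate 1 or TKO replicate 1 and 0 without TKO replicate 3.

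Genes of the unfolded protein and integrated stress responses were mostly lower. Of 22, 18 were lower by sign, the median log2 difference was −0.47, and 5 were lower (22.7% against 5.56%) and 1 higher at an unadjusted p under 0.05, with 0 called by DESeq2. Hspa5, the chaperone BiP of the endoplasmic reticulum, was at 1362, 809.6 and 1302 CPM in δKO and 415, 722 and 575 CPM in TKO, without overlap (log2 difference −1.02 ± 0.27, DESeq2 adjusted p = 0.0549). Calr, the calcium-binding chaperone calreticulin, was at 442, 898 and 1993 CPM and 436, 636 and 371 CPM, and the groups overlapped. Ddit3, the stress transcription factor CHOP, was at 105, 18.2 and 37.7 CPM in δKO and 11.9, 17.4 and 16.4 CPM in TKO, and without δKO replicate 1 the log2 difference was −0.88 instead of −1.82. Eif2ak4, the kinase GCN2 that senses missing amino acids, was the member that was higher, at 37.9, 36.2 and 45.2 CPM in δKO and 66, 78.8 and 65.2 CPM in TKO, with no overlap (log2 difference 0.82 ± 0.28, DESeq2 adjusted p = 0.0621). The list summed to 3714, 3767 and 6237 CPM in δKO and 2281, 3419 and 2495 CPM in TKO, which ranks the libraries of each group as the neutrophil and granule sums do, and the part of granulocyte transcripts was not tested. The median of the list was −0.18 without the unnumbered δKO library, −0.32 without TKO replicate 3 and −0.72 without TKO replicate 2, and the count of lower members was 2 without the unnumbered δKO library, TKO replicate 1 or TKO replicate 3 and 8 without TKO replicate 2. DESeq2 called 3 lower without δKO replicate 2 and 1 without δKO replicate 1 or TKO replicate 2.

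DNA repair and myelodysplasia genes gave few differences beyond their spread. Of 38 repair genes 29 were lower and 9 higher by sign, with a median of −0.25 (−0.31 to −0.19 with libraries left out). At an unadjusted p under 0.05, 3 were lower (7.89% against 5.56%), a count that was 5 without δKO replicate 2 and 1 without TKO replicate 2. Slx4, the scaffold of nucleases that cut joint DNA molecules, was at 210.3, 62 and 102 CPM in δKO and 53.1, 58 and 38.4 CPM in TKO. Brip1, a helicase that works with BRCA1, was at 47, 66.1 and 79.3 CPM and 42.5, 21.8 and 40.2 CPM. Both were among the 5 of 38 in which all TKO libraries lay below all controls (13.2% against 4.74%). Neither was called (DESeq2 adjusted p = 0.0957 and 0.154). Of 31 genes recurrently mutated in myelodysplasia, 24 were lower by sign, with a median of −0.26, whereas 17 were lower and 14 higher without δKO replicate 1, with a median of −0.08. On all 9 libraries 1 was lower at an unadjusted p under 0.05 (3.23% against 5.56%), a count that was 6 without δKO replicate 2 and 5 without the unnumbered δKO library. It was the cohesin subunit gene Rad21, at 654, 349 and 547 CPM in δKO and 296, 241 and 267 CPM in TKO (log2 difference −0.95 ± 0.26, DESeq2 adjusted p = 0.0732). Of 24 p53 targets DESeq2 called 1 higher (4.17% against 1.99%), Polk, a polymerase that copies past damaged bases, at 9.33, 14.7 and 9.62 CPM in δKO and a higher 35.7, 47.7 and 19.4 CPM in TKO without overlap (log2 difference 1.61 ± 0.45, DESeq2 adjusted p = 0.0102, call kept in 3 of 6 fits with a library left out). Without TKO replicate 1 or TKO replicate 2 DESeq2 called 0 p53 targets, and without δKO replicate 2 it called 2.

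Genes that define LT-HSCs were present in every library, with 1 of 44 at 0 in δKO replicate 1. Of these 44 genes 27 were higher and 17 lower by sign, with a median log2 difference of 0.12, and 2 were higher and 1 lower at an unadjusted p under 0.05 (4.55% and 2.27%, against 4.6% and 5.56% of all genes). Without δKO replicate 1 the median was 0.43, with 12 higher and 2 lower at that threshold and 3 called higher by DESeq2. Without the unnumbered δKO library it was −0.07, with 1 higher and 0 lower, and without TKO replicate 1 there were 0 higher and 1 lower. Hlf, a transcription factor largely restricted to stem cells in blood, was at 539, 374 and 477 CPM in δKO and 545, 436 and 615 CPM in TKO. Mecom, which keeps LT-HSCs quiescent, was at 249, 85.4 and 101 CPM and 186, 124 and 222 CPM. The groups overlapped in both genes. Fgd5, an exchange factor whose expression marks LT-HSCs, was at 31.2, 17.2 and 51.2 CPM in δKO and 83.6, 62.2 and 55.4 CPM in TKO, with every TKO library above every control (log2 difference 1.02 ± 0.40, edgeR unadjusted p = 0.0256, DESeq2 adjusted p = 0.205). Lyl1, a partner of the stem cell factor SCL, was lower, at 66.5, 89 and 63.3 CPM in TKO against 138, 96.4 and 172 CPM (DESeq2 adjusted p = 0.158).

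The genes of the sorting antigens were as follows. Ly6a, which encodes Sca1, was at 2.15, 20.4 and 10.2 CPM in δKO and 24.5, 37.3 and 26.9 CPM in TKO, where δKO replicate 1 was far below the rest and all TKO libraries were above all controls (log2 difference 1.43 ± 0.64, edgeR unadjusted p = 0.046). Kit, the receptor of stem cell factor, was at 949, 429 and 502 CPM and 556, 522 and 689 CPM. Slamf1, which encodes CD150, was at 137, 51.3 and 16.4 CPM and 159, 51 and 55.2 CPM. Both overlapped between the groups. Of the antigens that the sort excluded, Flt3 (Flk2) was at 7.06, 55.2 and 50.8 CPM in δKO and 12.4, 36.1 and 39.3 CPM in TKO. Cd48 was at 5.82, 21.1 and 12.9 CPM and 14, 12.5 and 9.66 CPM, so transcripts of both were detected in every library.

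Markers of granulocytes differed widely between the libraries of each genotype. Of 18 neutrophil and granule genes 17 were lower in TKO by sign, with a median log2 difference of −1.71 that ranged from −2.56 to −0.59 when single libraries were left out, and 2 were lower at an unadjusted p under 0.05 (11.1% against 5.56%). This count was 8 without δKO replicate 1, 9 without TKO replicate 2 and 1 without the unnumbered δKO library, TKO replicate 1 or TKO replicate 3. None of the 18 was at 0 in any library. Mpo, myeloperoxidase of granulocyte precursors, was at 99.2, 3032 and 7226 CPM in δKO and 59.9, 1888 and 428 CPM in TKO. Elane, neutrophil elastase, was at 45.8, 638 and 2529 CPM and 16.7, 569 and 121 CPM. Both spanned at least 31.5-fold within each group, and the groups overlapped. Csf3r, the receptor of the granulocyte growth factor G-CSF, was steadier, at 205, 175 and 262 CPM in δKO and 50.9, 142 and 109.6 CPM in TKO with no overlap (log2 difference −1.08 ± 0.36, DESeq2 adjusted p = 0.151). Of the 10 multipotent and lymphoid progenitor genes with enough counts, 1 was lower at an unadjusted p under 0.05 (10% against 5.56%), 4 were without δKO replicate 1 and 3 without TKO replicate 2. Of these genes, Notch1, the receptor that directs T cell fate, was at 88.4, 53.5 and 233 CPM in δKO and 38.1, 36.6 and 40.4 CPM in TKO, with a log2 difference of −1.70 that was −0.89 without the unnumbered δKO library.

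Erythroid and megakaryocyte genes had members on both sides. Of 15 erythroid genes 9 were higher and 6 lower by sign, with a median of 0.46. This median was 1.15 without δKO replicate 1, −0.13 without the unnumbered δKO library and −0.52 without TKO replicate 2. DESeq2 called 2 of the 15 higher (13.3% against 1.99%), Hemgn and Alas2. Hemgn, a nuclear protein of erythroid precursors and stem cells, was at 23.6, 29.2 and 24.9 CPM in δKO and 77.1, 67.9 and 35.8 CPM in TKO. Alas2, the enzyme that begins heme synthesis in red cell precursors, was at 1.08, 2.72 and 1.84 CPM and 5.7, 6.42 and 5.001 CPM. Neither overlapped between the groups, and their calls were kept in 3 and 1 of 6 fits with a library left out. DESeq2 called 3 of the list higher without δKO replicate 2 and 0 without the unnumbered δKO library, TKO replicate 1 or TKO replicate 2. Without the unnumbered δKO library it called 1 lower. The globin gene Hbb-bs was at 7.1, 0.0712 and 0.369 CPM and 5.99, 10.8 and 0.0424 CPM, with overlap. Of 16 megakaryocyte and platelet genes 8 were higher and 8 lower by sign, with a median of 0.008. At an unadjusted p under 0.05, 1 was higher and 3 lower (6.25% and 18.8%, against 4.6% and 5.56%). All TKO libraries lay above all controls in 1 (6.25% against 6.98%) and below them in 3 (18.8% against 4.74%). DESeq2 called 1 higher (6.25% against 1.99%), and 0 higher and 2 lower without δKO replicate 2. Selp, the adhesion molecule P-selectin, was at 29.4, 30.6 and 41.2 CPM in δKO and a higher 78, 71.5 and 56.9 CPM in TKO (DESeq2 adjusted p = 0.0307, call kept in 1 of 6). Itgb3, the β3 integrin of platelets, was at 80.6, 71.7 and 159 CPM and a lower 32, 55.5 and 38 CPM. Gp1ba, part of the von Willebrand factor receptor, was at 38.7, 24.8 and 56.5 CPM and 12.3, 19.97 and 19.7 CPM. These 3 separated the groups.

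**Figure D4:**
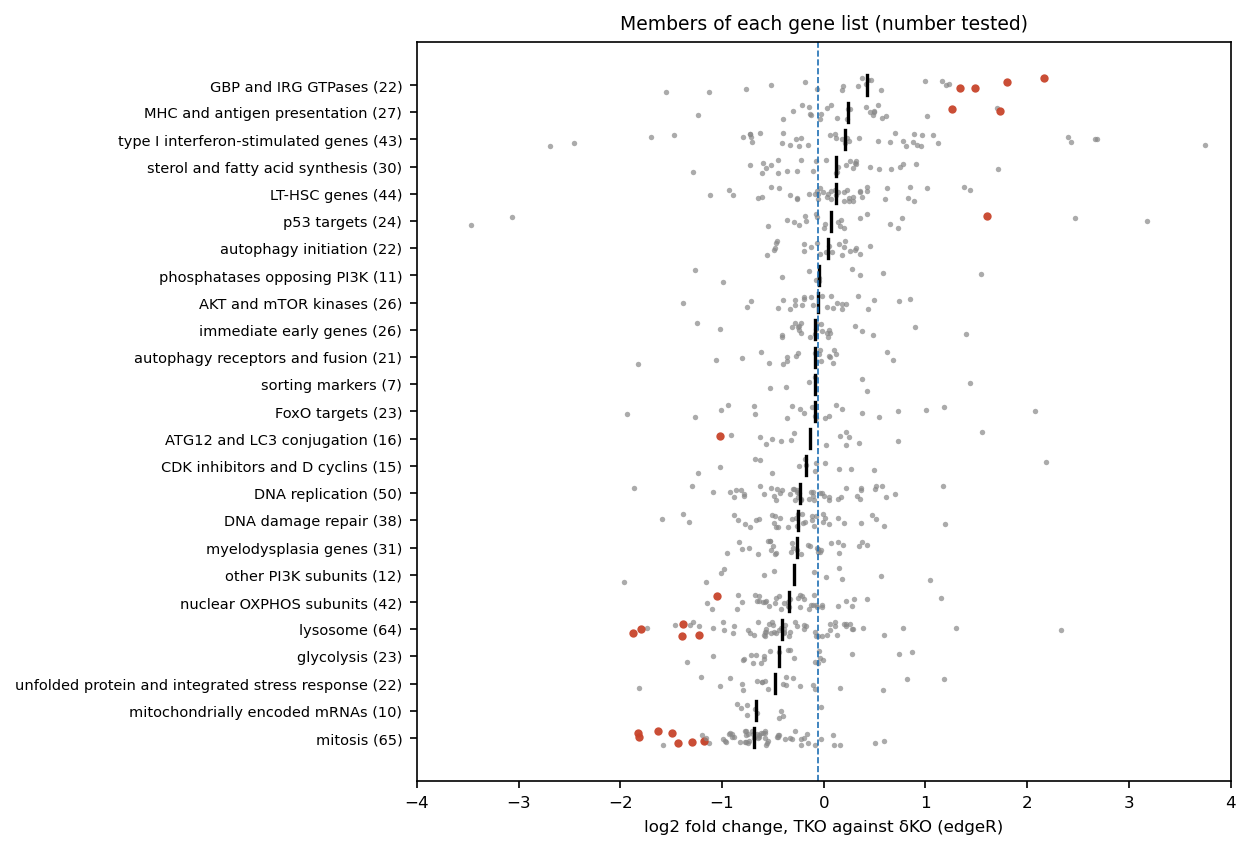
Log2 difference of TKO and δKO (x axis) for the members of each gene list (points, with those called by DESeq2 in red) and the list's median (black bar). The dashed line is the median of all genes at −0.06: the mitosis points lie mostly to its left (median −0.69) and the GBP and IRG points mostly to its right (median 0.43).

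The largest folds came from genes with few counts in one of the groups. Leaving out pseudogenes and genes without a symbol of their own, 114 of the 352 genes that DESeq2 called higher had separated libraries and a mean of at least 5 CPM in TKO, and 92 of the 200 lower genes had separated libraries and a mean of at least 5 CPM in δKO. Of these the 12 with the largest folds in each direction are named. The higher ones were led by Arhgap8, which encodes a GTPase-activating protein, with 2, 7 and 2 counts in the δKO libraries and 13, 1169 and 177 in the TKO libraries. TKO replicate 2 held most of these, and the log2 difference was 7.02 ± 1.80 (4.37 to 7.59 with libraries left out). Pxmp2, a channel of the peroxisomal membrane, had 0, 3 and 2 counts in δKO and 212, 375 and 27 in TKO (log2 difference 6.80 ± 1.65). Fitted differences of such genes depend on how zeros are handled.

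The other 10 of the largest higher genes were Shisa8, St8sia2, Il4, Arhgef25, Akr1c19, Capn12, Tmem120b, Foxa3, Slc17a8 and Tbr1, with log2 differences from 3.85 to 5.80. With single libraries left out those of Shisa8 (5.80) and Il4 (5.26) went down to 3.16 and 3.19. Several are known for other organs: St8sia2 makes polysialic acid on neural cells, Slc17a8 encodes a vesicular glutamate transporter, Tbr1 is a transcription factor of cortical neurons and Foxa3 one of liver and gut. Tbr1 was at 0.279, 2.08 and 0.111 CPM in δKO and 18.1, 9.01 and 9.39 CPM in TKO, with all TKO libraries above all controls (DESeq2 adjusted p = 0.0022). Il4, which encodes interleukin 4, was at 0.0399, 0.125 and 0.221 CPM and 0.555, 12.7 and 1.84 CPM, most of it in TKO replicate 2. Arhgef25, a guanine nucleotide exchange factor, was at 0.12, 0.516 and 0.479 CPM in δKO and 17.7, 15.8 and 1.25 CPM in TKO (DESeq2 adjusted p = 0.000231). Capn12 overlaps Actn4 and Tmem120b overlaps Rhof in the annotation, and whether the counting used strand is not given in the sources used here. Akr1c19 belongs to a family of near copies. DESeq2 called Pxmp2, St8sia2, Arhgef25, Capn12, Tmem120b and Slc17a8 whichever library was left out, Arhgap8, Shisa8, Il4 and Tbr1 in 5 of the 6 fits, and Akr1c19 and Foxa3 in 2.

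The 12 largest lower genes were Mir6360, Proscos, Phkg1, Itga1, Amotl2, P2ry2, Neo1, Rps6ka2, Hebp1, Hlx, Olfr56 and Slc26a1, with log2 differences from −7.10 to −2.74. That of Mir6360 was −7.10 and ranged from −7.68 to −4.32 with single libraries left out. Itga1, the α1 integrin that binds collagen, was at 9.33, 3.28 and 10.3 CPM in δKO and 0.0574, 0.639 and 0.403 CPM in TKO, without overlap (log2 difference −4.38 ± 1.17, DESeq2 adjusted p = 0.000355). Amotl2, a scaffold that binds the Hippo effector YAP, was at 48.4, 5.29 and 37.7 CPM and 4.15, 1.45 and 1.7 CPM, with δKO replicate 2 close to the TKO libraries. P2ry2, a receptor of extracellular ATP and UTP, was at 66, 20.1 and 6.16 CPM in δKO and 1.47, 2.5 and 4.01 CPM in TKO, with a steep order among the controls. Rps6ka2, the ribosomal S6 kinase RSK3 of the ERK pathway, was at 8.34, 29.6 and 68.9 CPM in δKO and 2.45, 5.14 and 3.35 CPM in TKO (log2 difference −3.29 ± 0.76, DESeq2 adjusted p = 0.00212). Hlx, a homeobox factor of hematopoiesis, was at 14.6, 3.45 and 23.6 CPM and 1.01, 1.34 and 2.75 CPM. Neo1, neogenin, a receptor of netrins that has been studied in stem cell quiescence, was at 29.1, 4.36 and 10.03 CPM and 1.64, 0.581 and 2.03 CPM. DESeq2 called Itga1, Amotl2, P2ry2, Rps6ka2, Hebp1, Hlx, Olfr56 and Proscos whichever library was left out, Mir6360 and Neo1 in 5 of the 6 fits, Phkg1 in 4 and Slc26a1 in 2. Of the 24 largest, Foxa3 and Slc26a1 were not called on the 6 compared libraries alone (adjusted p = 0.135 and 0.0847).

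Several of these lower genes share bases with another gene. Mir6360 lies on the opposite strand within Mapre2 and had 2, 1 and 2 counts in the TKO libraries against 2, 83 and 400 in δKO. Proscos overlaps the start of Plpbp on the opposite strand, the span of Olfr56 covers the IRG-related genes Ifi47, Tgtp1 and Tgtp2, Phkg1 overlaps Chchd2 and Sumf2, Hebp1 overlaps Fam234b and Slc26a1 overlaps Idua. Itga1 has Pelo within it on the same strand. Of the other genes named here, Alas2, Aldoa, Carhsp1, Cd180, Cdc45, Ddit3, Inppl1, Ldhd, Lyl1, Ndufs3, Polk, Rbl2 and Tpi1 overlap a protein-coding gene on the opposite strand. Their values cannot be assigned to one of the overlapping genes with certainty. Olfr56, at 25.6, 5.93 and 10.7 CPM in δKO and 2.33, 1.77 and 2.1 CPM in TKO, was lower while most of the IRG list was higher.

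**Figure D5:**
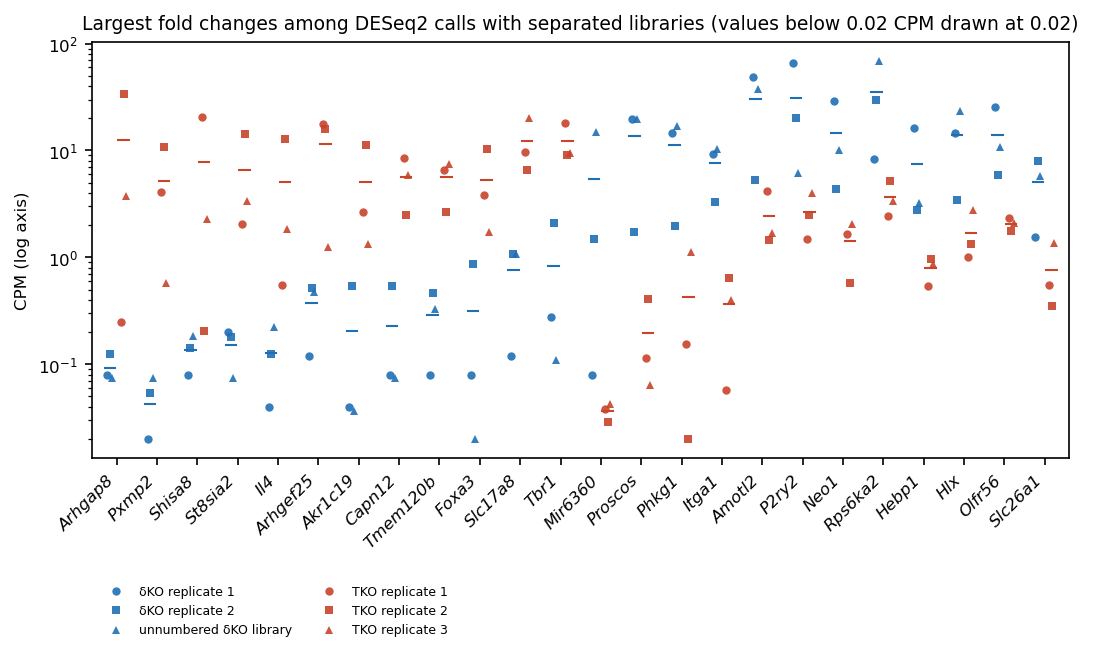
CPM on a log axis of the 12 genes with the largest higher and the 12 with the largest lower fold among DESeq2 calls, in each δKO and TKO library. Bars are group means and values below 0.02 CPM are drawn at 0.02. The groups do not overlap because the genes were chosen that way, and a group can still spread widely, as in Arhgap8 (0.249 to 34.0 CPM in TKO).

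The following genes were chosen after their values were seen, from the 99 that DESeq2 called whichever library was left out. Kctd17, an adaptor of the CUL3 ubiquitin ligase (ENSMUSG00000033287.15, chromosome 15 from 78428564 to 78439303), was at 2.07, 2.48 and 2.21 CPM in the δKO libraries and 22.9, 17.6 and 16.9 CPM in the TKO libraries. Neither group of Kctd17 spanned more than 1.35-fold, and the log2 difference was 3.08 ± 0.58 (edgeR unadjusted p = 0.000198, DESeq2 adjusted p = 1.76e-21). Enah, an actin regulator of the Ena/VASP family, was at 18.8, 7.69 and 11.1 CPM and 67.8, 78 and 57.1 CPM. Epb41l1, a protein of the membrane skeleton, was at 5.9, 6.5 and 3.06 CPM and 34.7, 47 and 26.6 CPM (log2 differences of Enah and Epb41l1 2.43 ± 0.47 and 2.81 ± 0.53). Lamc1, the laminin γ1 chain, was at 9.57, 13.2 and 7.04 CPM in δKO and 42.5, 27.4 and 30.4 CPM in TKO. In each of these the lowest TKO library was above the highest control.

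Signaling and adhesion genes were among the same calls. Ltb, which encodes lymphotoxin β, was at 1.12, 2.71 and 2.73 CPM in δKO and 13.8, 12.3 and 9.73 CPM in TKO. Ptger3, a receptor of prostaglandin E2, was at 4.91, 10.9 and 7.81 CPM and 20.2, 27.1 and 21.8 CPM. Ncam2, a neural cell adhesion molecule, was at 3.95, 4.79 and 1.11 CPM in δKO and 27.5, 44.3 and 20.8 CPM in TKO (log2 difference 3.23 ± 0.71). Mir155hg, the host gene of miR-155, was at 2.67, 0.801 and 2.36 CPM and 9.37, 11.7 and 9.83 CPM. All 4 were higher in every TKO library than in any control, the lowest TKO value being 20.2 CPM for Ptger3 and 9.37 CPM for Mir155hg. Ldhd, a mitochondrial D-lactate dehydrogenase, was at 0.798, 3.86 and 1.03 CPM and 25.6, 21.1 and 15.1 CPM. Sfxn3, a mitochondrial serine transporter, was at 15.2, 26.9 and 14.9 CPM and 55.8, 52.7 and 65.5 CPM. Stxbp6, a protein that binds SNAREs, was at 0.399, 3.99 and 2.58 CPM and 22.6, 28.9 and 22.3 CPM. The δKO libraries of several of these genes were widely spread, 4.33-fold in Ncam2, 4.84-fold in Ldhd and more than that in Stxbp6.

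On the lower side, 3 such genes are known from immune cells. Cd180, a Toll-like receptor homolog that modulates the response to lipopolysaccharide, was at 96.8, 61.5 and 86.9 CPM in δKO and 17.5, 29.2 and 24.2 CPM in TKO, a log2 difference of −1.79 ± 0.38 (edgeR unadjusted p = 0.000543, DESeq2 adjusted p = 0.00247). Siglecg, an inhibitory lectin that binds sialic acid, was at 26.2, 14.6 and 18.9 CPM and 1.53, 6.07 and 6.53 CPM. Carhsp1, a protein that binds RNA and stabilizes the TNF transcript, was at 29.8, 21.2 and 30.1 CPM and 6.21, 10.3 and 10.1 CPM. The highest TKO library of each lay below the lowest control, and the call of Siglecg was lost on the 6 compared libraries alone (adjusted p = 0.0737). F13a1, the factor XIII A chain of monocytes and platelets, lay below as well but was not called, at 13.8, 49.9 and 5.53 CPM in TKO against 62.7, 84.5 and 72.1 CPM (DESeq2 adjusted p = 0.194). It was named from a list of 18 monocyte and macrophage genes, of which 15 had enough counts. Of those 15, 10 were lower and 5 higher by sign, with a median of −0.42 (−1.41 to 0.16 with libraries left out). F13a1 was the 1 member with all TKO libraries below all controls (6.67% against 4.74%).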

How the data were processed

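RNA was measured by bulk RNA sequencing of sorted mouse LT-HSCs, with 3 TKO and 3 δKO libraries compared and 3 WT libraries used only for the spread. Per the labels, cDNA was amplified with the Ovation RNA-Seq System V2 and sequenced at BGI. The authors trimmed reads with Trim Galore 0.3.7, checked them with FastQC 0.11.4, aligned them to mm10 with STAR 2.5.1b and counted reads per gene with the same tool. The authors deposited whole-number counts per gene (47643 genes, not normalized), which were analyzed here. They also deposited counts divided by DESeq2 size factors, a normalized signal that served 1 alternative. The δKO columns of that signal are numbered 1 to 3, and whether number 3 is the unnumbered δKO library was not examined. The annotation and strand setting of the counting, and how the 2 technical runs per library were joined are not given in the sources used here. Amplification and whole-gene counting mean that counts are not molecules and that deleted exons are not seen.

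Low genes were dropped by filterByExpr of edgeR (count minimum 10, minimum total count 15), leaving 18205. Counts were scaled with TMM factors and tested with edgeR's quasi-likelihood test (edgeR 4.0.16, R 4.3.3) with 1 mean per genotype over 9 libraries, two-sided. The common biological coefficient of variation was 0.805, so the variation between libraries and not the depth (31300343 to 54249565 counts) set the precision. DESeq2 1.42.0 on the full table was an alternative whose calls are also given. A call is a Benjamini-Hochberg adjusted p under 0.05 with more than 2-fold change, and an unadjusted p is always that of edgeR. The scripts were tested on simulated data. Coordinates are those of the mm10 GENCODE M21 annotation (47224 of 47643 identifiers found without their version), and promoter windows are from RefSeq on GRCm38.p6, matched by symbol. Protein sequences were not used here.

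Gene lists and the comparison were chosen with earlier results of these data known. Genes named are the targeted and sorting genes, from each list at most 5 with the smallest p and some of its defining members, and in each direction the 12 largest DESeq2 calls with no overlap between groups and a higher mean of at least 5 CPM. Others are said to be chosen after their values were seen. Alternatives were RLE and upper-quartile factors, no filter, at least 10 counts in every library, only the 6 libraries, the replicate number as a block, detected genes as a covariate, robust estimation, DESeq2, limma (3.58.1) on log2(normalized value + 1), and each library left out. The voom method with quality weights, DESeq2 on genes kept by filterByExpr and the DESeq2 fits with a library left out were added after the data were examined.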

Additional observations from a re-analysis of the deposited data

How the results depend on the processing

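Under every edgeR and limma alternative the count of called genes stayed 0 in both directions, while DESeq2 called 352 higher and 200 lower on 9 libraries and 189 and 78 on the 6 compared. Restricted to genes kept by filterByExpr, DESeq2 called 193 higher and 142 lower. With single libraries left out its calls ranged from 186 to 1416 higher and from 95 to 686 lower. In the same fits, mitosis members lower at an unadjusted p under 0.05 numbered 19 to 41 and those called by DESeq2 5 to 17, GBP and IRG members called higher 2 to 5, and lysosomal members lower 6 to 19 and called 0 to 10. Of 118 genes followed one by one, most were named for a small p or separated groups, which largely fixes their direction. The fit with at least 10 counts in every library tested 101 of them, edgeR on the 6 compared libraries 116 and the others all 118. In total, 114 kept their direction under every alternative that tested them. Those that did not were Pik3ca (log2 difference −0.18 to 0.43 with libraries left out), Pik3cd (−0.0446 with detected genes as a covariate, −0.057 by voom, −0.16 to 0.40 with libraries left out), Kit (0.10 with upper-quartile factors, 0.018 with at least 10 counts in every library, 0.12 with the covariate, 0.28 by voom, −0.30 to 0.34 with libraries left out) and Slamf1 (−0.37 to 1.38 with libraries left out). The cause was not tested. With the replicate number as a block, 0 genes were called higher and 0 lower, the smallest adjusted p was 0.738, the mitosis median was −0.46 and Slamf1 was at −0.012. The numbers do not pair the samples: deviations of same-numbered libraries from their group means correlated at 0.08 and −0.03, and the unnumbered δKO library was left unpaired. Of 35 list medians 18 changed sign under at least 1 alternative. Depth limits genes with few counts in a group, such as Pxmp2 and Mir6360.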
